A study of Mus musculus with 9 samples.

Results

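The 8 genes *Trub2*, *Zbtb38*, *Ucp2*, *Scml2*, *Maats1*, *Zan*, *Ackr2* and *Chaf1b* were followed, out of 15464 genes in the striatal table. They were chosen from measured values, because their mean normalized counts in HET and in KO both shifted to the same side of the WT mean. No threshold for the choice is given. All 8 are among the 20 genes that passed an unadjusted p of 0.05 in limma in both contrasts with the same sign. The shift from WT is therefore what chose them, and it is given below as a description without a test. Of the 8 genes, 4 were higher in both mutant genotypes (*Trub2*, *Ucp2*, *Maats1* and *Chaf1b*) and 4 were lower in both (*Zbtb38*, *Scml2*, *Ackr2* and *Zan*).

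The study sequenced striatal RNA of adult male mice, 10 to 12 weeks old, on a C57BL/6J background, with 1 mouse per library and 3 mice per genotype. HET mice carry the targeted *Shank3B* allele on 1 chromosome and KO mice on both, while their WT littermates carry none. The *Shank3B* allele is constitutive and targets part of the exons of *Shank3*, which encodes a scaffold protein of the excitatory postsynapse, so that transcripts of other exons can remain. The deposited values are normalized counts per gene, and all levels and folds below are on that scale or on log2(normalized count + 1).

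The targeted gene was read first. *Shank3* had 7209, 8812 and 6043 normalized counts in the WT libraries, 7575, 7098 and 8049.8 in the HET libraries, and 10237, 10798 and 10578 in the KO libraries. These are sums over all exons, and they do not check the deletion. The paper also reports more total *Shank3* transcript in KO. It assigns the rise to exons outside the targeted part and found it by qRT-PCR as well. Over the 9 libraries the normalized counts summed to 30830020 at the lowest and 33790296 at the highest, which follows the normalization and does not give the depth in reads. HET replicate 3 and KO replicate 3 stood apart on the first principal component (33.6% of the variance), at 33.8 and 34.2, where the other libraries lay between -17.02 and 1.35. The 11 medium spiny neuron markers were all detected, with a summed level of 77043 to 152393 in WT, 105674 to 136644 in HET and 67589 to 114069 in KO. The lowest sums were those of KO replicate 3 and WT replicate 3, and the median log2 difference of the markers from WT was 0.051 in HET and -0.270 in KO.

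The 8 genes work in different parts of the cell. TRUB2 is a mitochondrial pseudouridine synthase that modifies mitochondrial RNA, and UCP2 is a carrier of the inner mitochondrial membrane. ZBTB38 is a zinc finger protein that binds methylated CpG, SCML2 is a Polycomb group protein with MBT repeats, and CHAF1B is a subunit of chromatin assembly factor 1 (CAF-1), which places histones H3 and H4 on newly made DNA. MAATS1, also called CFAP91, belongs to the axoneme of cilia and flagella, zonadhesin (ZAN) is a sperm protein that binds the egg coat, and ACKR2 is an atypical chemokine receptor that takes up inflammatory CC chemokines without classical signalling.

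The upstream sequences of the 4 genes whose HET and KO libraries all lay outside the WT range are shown. This choice rests on the values that picked the genes, and the gap to WT was narrow for *Maats1* (0.605 normalized counts) and *Chaf1b* (0.914). Each is the 250 bases before the start of the gene in RefSeq (GRCm38.p6), 5′ to 3′ on the strand of the gene, with matches to the searched motifs in capitals. They lie at chr2:29787672-29787921 on the minus strand (*Trub2*), chr16:38341861-38342110 on the minus strand (*Maats1*), chr16:93883651-93883900 on the plus strand (*Chaf1b*) and chr9:121898105-121898354 on the plus strand (*Ackr2*). RefSeq and GENCODE place some starts apart, and the windows of *Trub2* and *Maats1* lie wholly inside the GENCODE span given below for the gene.
Trub2: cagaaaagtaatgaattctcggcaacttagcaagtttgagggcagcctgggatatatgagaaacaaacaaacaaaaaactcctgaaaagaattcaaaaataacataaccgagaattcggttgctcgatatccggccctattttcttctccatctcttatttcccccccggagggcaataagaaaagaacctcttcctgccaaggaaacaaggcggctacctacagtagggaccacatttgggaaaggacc
Maats1: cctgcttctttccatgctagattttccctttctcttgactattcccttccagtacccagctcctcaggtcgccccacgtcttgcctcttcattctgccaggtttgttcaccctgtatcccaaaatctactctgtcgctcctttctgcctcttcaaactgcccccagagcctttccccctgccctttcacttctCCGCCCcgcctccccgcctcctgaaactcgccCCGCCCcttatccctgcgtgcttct
Chaf1b: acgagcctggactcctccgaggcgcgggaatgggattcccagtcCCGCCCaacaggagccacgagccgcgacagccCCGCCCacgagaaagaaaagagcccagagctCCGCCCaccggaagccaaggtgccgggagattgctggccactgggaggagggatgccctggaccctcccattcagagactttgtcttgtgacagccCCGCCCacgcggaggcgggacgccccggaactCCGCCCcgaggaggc
Ackr2: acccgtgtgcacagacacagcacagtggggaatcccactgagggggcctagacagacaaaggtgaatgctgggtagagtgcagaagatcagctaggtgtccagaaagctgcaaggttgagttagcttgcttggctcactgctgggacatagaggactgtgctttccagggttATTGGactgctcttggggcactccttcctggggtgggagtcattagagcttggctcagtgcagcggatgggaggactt

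The motifs were searched on both strands: the GC box (GGGCGG), the E-box (CACGTG), the TATA box (TATAAA), the motif known as the CCAAT box, an NRF1 core (GCGCATG), an E2F core in its G form (TTGGCGC) and its C form (TTCGCGC), and a CRE core (TGACG). None of these contains another. All 8 genes had an entry, with 10 windows in all because *Zbtb38* has 3 annotated starts. Of these, 6 lie wholly inside the GENCODE span of the gene (*Trub2*, *Maats1*, *Scml2* and the 3 of *Zbtb38*), 1 partly (*Ucp2*) and 3 outside it. *Chaf1b* held 5 GC boxes and *Maats1* held 2, and *Ucp2* and *Zbtb38* also held at least 1. Thus 4 of the 8 genes had a GC box in at least 1 window. The share over the genome, 32.7% of 32851, is counted per window and not per gene, so that it is not a like measure for *Zbtb38* with its 3 windows. A CRE core was found in *Ucp2*, *Zan* and a window of *Zbtb38* (17.8% of all windows), and a CCAAT box in *Ackr2* alone (33.8%). The window of *Trub2* held none of the 8 motifs. The TATA box (12.4%), E-box (6.02%), NRF1 core (3.24%) and both E2F cores (1.97% and 1.28%) were in none of the 10 windows. The CpG ratio, observed over expected, ran from 0.112 in *Ackr2* to 0.912 in a window of *Zbtb38*, with a median of 0.373 over all windows. It was 0.593 to 0.720 in *Trub2*, *Ucp2*, *Maats1* and *Chaf1b*, 0.610 to 0.912 in the windows of *Zbtb38*, 0.350 in *Scml2* and 0.238 in *Zan*. The windows of *Scml2* (from 161162500, GENCODE span from 161117193) and *Zbtb38* (up to 96731925, span up to 96752831) lie far inside the gene. The ratios are therefore not compared between the higher and the lower genes.

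*Trub2* (ENSMUSG00000039826) spans 29761224 to 29788502 of chromosome 2 (GRCm38, minus strand). The WT libraries had 783, 624 and 711 normalized counts, the HET libraries 948, 861 and 841, and the KO libraries 846, 839.7 and 919. All 6 mutant libraries were above the highest WT library, with 57.0 normalized counts between the nearest values. Averaged over 3 mice it had 706 ± 79.3 in WT, 883 ± 56.8 in HET and 868 ± 44.0 in KO (± SD), that is 1.25-fold and 1.23-fold. On the log2 scale the difference from WT was 0.33 in HET and 0.30 in KO (standard error 0.11 for each). In bulk tissue, more cells of a type and more RNA per cell cannot be told apart.

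The coding gene *Coq4* overlaps *Trub2* on the opposite strand, and its log2 difference was -0.13 in HET and 0.02 in KO. Among the 15 other pseudouridine synthases and members of the mitochondrial rRNA module, all tested, 0 passed an unadjusted p of 0.05 in HET or in KO in limma, and their median log2 difference was 0.043 in HET and -0.032 in KO. Over all 14239 genes tested the medians were -0.003 and 0.005. At the unadjusted threshold 1.11% of all genes tested passed in HET and 0.822% in KO. A count of 0 is therefore likely for any list this short. RPUSD4, a pseudouridine synthase of the same mitochondrial module, had 194 ± 19.8, 236 ± 33.8 and 236 ± 16.96 normalized counts in WT, HET and KO (SD, n = 3 each) for its gene *Rpusd4*. *Rpusd3* had log2 differences of -0.14 and -0.26 and *Ngrn* of -0.11 and -0.21, so that the signs within the module were mixed.

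*Ucp2* (ENSMUSG00000033685) spans 100493337 to 100502020 of chromosome 7 (plus strand). It had 420.5, 565 and 398 normalized counts in WT, 642, 834 and 641 in HET, and 494, 639 and 872 in KO. The HET libraries were all above WT, while KO replicate 1 lay 70.2 normalized counts below WT replicate 2. Over its 3 mice the mean was 461 ± 90.6 in WT, 706 ± 111 in HET and 668 ± 190.4 in KO (± SD), with log2 differences of 0.62 and 0.51 (standard error 0.21 for each). KO varied most for this gene, with a coefficient of variation of 28.5% against 15.8% in HET and 19.7% in WT. Without KO replicate 3, the highest of the 9 libraries, the KO difference was 0.30, and with HET replicate 3 left out as well it was 0.68 in HET and 0.30 in KO.

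*Dnajb13*, a gene of motile cilia picked for mention after its values were seen, overlaps *Ucp2* on the opposite strand. Its mean was 13.1 normalized counts, and its log2 difference was 0.71 in HET and 0.90 in KO, neither past an unadjusted p of 0.05 in limma. The library kit keeps the strand of the RNA, and whether the counting used it is not given in the sources used here. Of the 10 other uncoupling proteins and related carriers, 8 were tested, with medians of -0.009 and -0.025. In limma 0 passed the unadjusted threshold in HET or KO (1.11% and 0.822% of all genes tested). The brain uncoupling proteins had log2 differences of -0.08 and -0.04 for *Slc25a27* and -0.07 and -0.08 for *Slc25a14* in HET and KO. UCP2 is abundant in macrophages and microglia, and the summed level of 11 microglia and macrophage markers was 12459 to 13726 in WT, 12829 to 14388 in HET and 12568 to 13557 in KO, with 0 of 11 past the unadjusted threshold. The genotypes overlapped in this sum, and its part in the *Ucp2* values was not tested.

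**Figure D1:**
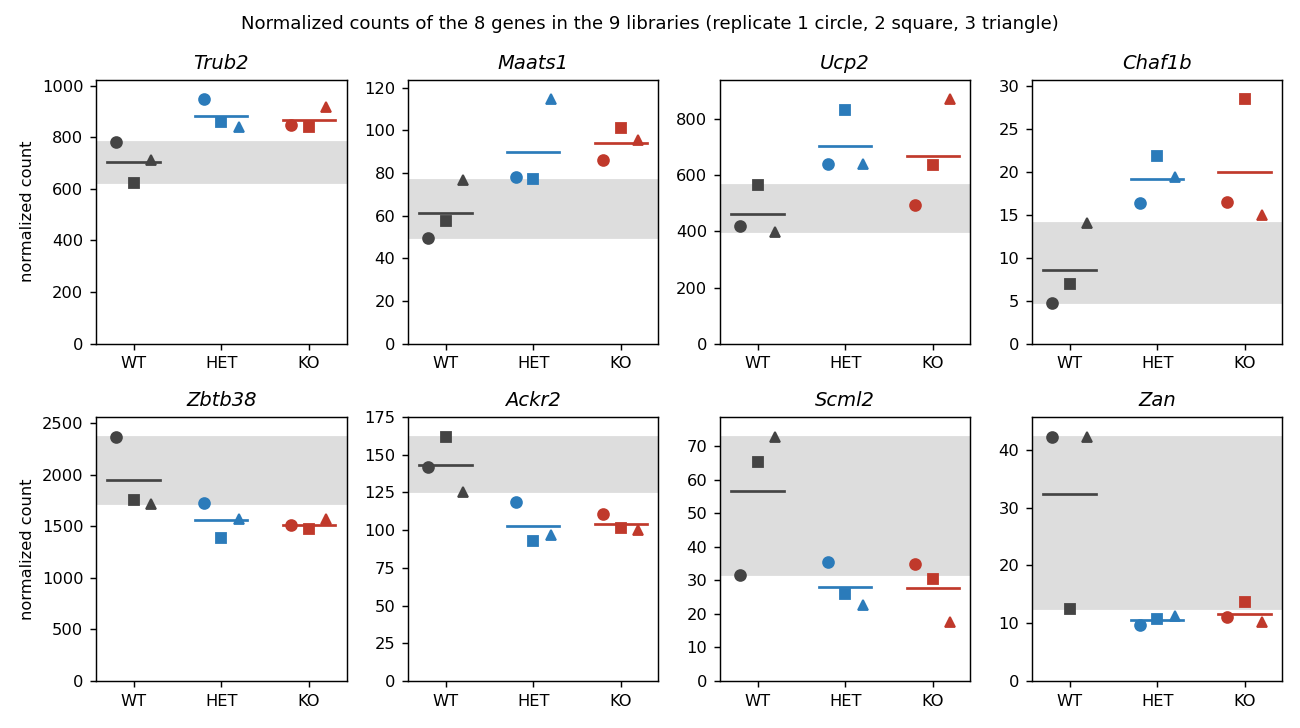
Normalized counts (y axis, from 0) of the 8 genes in each library of WT, HET and KO, with a bar at the mean of 3 mice and the WT range shaded grey. The 6 mutant points lie outside the band for *Trub2*, *Maats1*, *Chaf1b* and *Ackr2*, and from 1 to 2 of them lie inside it for *Ucp2*, *Zbtb38*, *Scml2* and *Zan*.

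The 3 chromatin genes differed in sign, since *Chaf1b* was higher and *Zbtb38* and *Scml2* were lower. *Zbtb38* (ENSMUSG00000040433) spans 96682770 to 96752831 of chromosome 9 (minus strand). It had 2371, 1753 and 1719 normalized counts in WT, 1725, 1389.6 and 1573 in HET, and 1508, 1469 and 1574 in KO. The KO libraries were all below WT, and HET replicate 1 lay 6.17 normalized counts above WT replicate 3. The mean of 3 mice in WT, HET and KO was 1948 ± 367, 1563 ± 168 and 1517 ± 52.9 (± SD) respectively, with log2 differences of -0.31 and -0.34 (standard error 0.13 for each). WT replicate 1 carried much of the shift, and without it the differences were -0.16 in HET and -0.19 in KO.

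ZBTB38 shares the binding of methylated CpG with ZBTB4 and with ZBTB33 (Kaiso). *Zbtb4* had log2 differences of -0.08 in HET and 0.01 in KO, and *Zbtb33* of 0.05 and 0.03. The 11 other methyl-CpG-binding proteins, all tested, had medians of -0.051 and -0.019. Of these, 0 passed the unadjusted p of 0.05 in HET or in KO against WT in limma (1.11% and 0.822% of all genes tested).

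*Scml2* (ENSMUSG00000000037) spans 161117193 to 161258213 of chromosome X (plus strand). It had 31.6, 65.4 and 72.9 normalized counts in WT, 35.5, 25.9 and 22.6 in HET, and 34.9, 30.5 and 17.7 in KO. WT replicate 1 lay among the mutant libraries, and 4 of the 6 mutant libraries were below it. The mean of 3 mice was 56.6 ± 22.0 in WT, 27.997 ± 6.72 in HET and 27.7 ± 8.91 in KO (± SD), so that both genotypes had 0.49 times the WT mean. The log2 differences were -0.93 and -0.97 (standard error 0.37 for each). They ran from -1.30 without WT replicate 1 to -0.71 without WT replicate 3 in HET, and from -1.34 without WT replicate 1 to -0.69 without KO replicate 3 in KO. The 28 other Polycomb group and MBT-repeat genes, all tested, had medians of 0.012 and -0.003 and a range from -0.38 to 0.20 over both. Of these, 0 passed the unadjusted p of 0.05 in HET or KO in limma (1.11% and 0.822% of all genes tested).

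*Chaf1b* (ENSMUSG00000022945) spans 93883901 to 93906115 of chromosome 16 (plus strand). The WT libraries had 4.78, 6.90 and 14.1 normalized counts, the HET libraries 16.4, 21.8 and 19.4, and the KO libraries 16.5, 28.4 and 15.001. All 6 mutant libraries were above WT, though only 0.914 normalized counts separated KO replicate 3 from WT replicate 3. The gene had at least 10 normalized counts in 1 of the 3 WT libraries, so that it passed the filter on low values only through the mutant libraries. Its mean of 3 mice in WT, HET and KO was 8.59 ± 4.88, 19.2 ± 2.69 and 20.0 ± 7.36 (± SD) respectively, 2.23-fold and 2.33-fold the WT mean. The log2 difference was 1.18 in HET and 1.194 in KO (standard error 0.41 for each), and over single libraries left out it ran from 0.88 without WT replicate 1 to 1.58 without WT replicate 3.

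The genes of the other CAF-1 subunits had smaller differences. *Chaf1a*, the large subunit, had 178 ± 16.2, 185 ± 11.4 and 179.97 ± 10.4 normalized counts in WT, HET and KO (SD, n = 3 each), and the small subunit gene *Rbbp4* had log2 differences of -0.005 and -0.049. Of the 19 other histone chaperone and nucleosome assembly genes, all tested, 0 passed the unadjusted p of 0.05 in HET or KO in limma. Since CAF-1 acts where DNA is copied, 10 markers of dividing cells were read beside it. Of these, 1 (*Ccnb1*) passed the unadjusted threshold in HET with a log2 difference of 1.07 (1.11% of all genes tested passed there) and 0 passed in KO in limma (0.822%). Their summed level was 794 to 1232 in WT, 975 to 1348 in HET and 992 to 1436 in KO. KO replicate 2 had the highest sum and the most *Chaf1b*, HET replicate 2 had the next highest *Chaf1b* (21.8) with a sum of 975, and WT replicate 3 had a sum of 1232 with 14.1 normalized counts of *Chaf1b*. The median log2 difference of the 10 markers was 0.211 in HET and 0.305 in KO. Whether dividing cells had a part in the *Chaf1b* values was not tested.

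*Maats1* (ENSMUSG00000022805) spans 38297754 to 38342143 of chromosome 16 (minus strand). It had 49.4, 57.3 and 76.5 normalized counts in WT, 77.9, 77.1 and 115 in HET, and 85.9, 101 and 95.4 in KO. All 6 mutant libraries were above WT, but HET replicate 2 exceeded WT replicate 3 by only 0.605 normalized counts. The mean of 3 mice was 61.1 ± 14.0 in WT, 89.9 ± 21.4 in HET and 94.2 ± 7.75 in KO (± SD), with log2 differences of 0.55 and 0.64 (standard error 0.23 for each). HET replicate 3 raised the HET value, which was 0.36 without it. An antisense gene on the opposite strand of *Maats1* is annotated and is not used here.

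Among the 33 other genes of the radial spoke and motile axoneme, 28 were tested, and 0 in HET and 2 in KO passed the unadjusted p of 0.05 in limma, both higher (0.386% of all genes tested were higher in KO at this threshold). They were *Cfap61*, a radial spoke gene, with 78.6 ± 8.28, 91.9 ± 24.5 and 113 ± 21.7 normalized counts in WT, HET and KO, and *Dnah5*, an outer arm dynein heavy chain, with 108 ± 11.5, 105 ± 10.7 and 153 ± 36.4 (SD, n = 3 each). The KO log2 differences were 0.51 (standard error 0.23) and 0.47 (standard error 0.20), and both genes had an adjusted p of 0.9994 in limma. The median of the 28 genes was 0.119 in HET and 0.273 in KO, against -0.003 and 0.005 over all genes tested. In the brain, motile cilia are borne by ependymal cells, and 11 ependymal markers summed to 484 to 843 in WT, 610 to 753 in HET and 394 to 1004 in KO. The genotypes overlapped in this sum, with a median log2 difference of the markers of 0.186 in HET and 0.147 in KO. KO replicate 2 had the highest sum of the 9 libraries and the most *Maats1* in KO (101), WT replicate 3 had the highest sum and the most *Maats1* in WT (76.5), and KO replicate 3 had the lowest sum of all with 95.4 normalized counts of *Maats1*. In HET the order was another, since replicate 3 had the most *Maats1* of the 9 libraries (115) with a sum of 617. HET replicate 2 had the highest sum in HET (753) and the least *Maats1* there (77.1). The part of ependymal cells in the *Maats1* values was not tested.

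*Zan* (ENSMUSG00000079173) spans 137378637 to 137477064 of chromosome 5 (minus strand), and overlaps *Ephb4* on the other strand. It had 42.3, 12.5 and 42.2 normalized counts in WT, 9.66, 10.7 and 11.2 in HET, and 11.03, 13.6 and 10.2 in KO. The 6 mutant libraries and WT replicate 2 lay close together, and WT replicates 1 and 3 stood above them. The HET libraries were all below WT, and KO replicate 2 was 1.15 normalized counts above WT replicate 2. The mean of 3 mice in WT, HET and KO was 32.4 ± 17.2, 10.5 ± 0.798 and 11.6 ± 1.79 (± SD) respectively. The log2 differences of -1.35 and -1.23 (standard error 0.45 for each) were the most negative among the 8 genes, and they became -1.07 and -0.95 without WT replicate 1 and -1.91 and -1.79 without WT replicate 2. Of the 13 other sperm genes of egg coat binding, 3 were tested, with medians of -0.307 and -0.040. In limma 0 passed the unadjusted p of 0.05 in HET or KO (1.11% and 0.822% of all genes tested). *Adam3*, a sperm membrane gene picked for mention after its values were seen, had log2 differences of -1.95 and -1.70 at 12.6 ± 3.22, 7.38 ± 12.2 and 6.83 ± 10.3 normalized counts in WT, HET and KO (SD, n = 3 each). The other two, *Acr* and *Zpbp*, had -0.31 and -0.16 in HET and 0.001 and -0.04 in KO.

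*Ackr2* (ENSMUSG00000044534) spans 121898355 to 121911074 of chromosome 9 (plus strand). It had 142, 162 and 125 normalized counts in WT, 119, 92.6 and 96.9 in HET, and 110.5, 101 and 99.8 in KO. The 6 mutant libraries were all below WT, with 6.43 normalized counts between HET replicate 1 and WT replicate 3. The mean of 3 mice was 143 ± 18.4 in WT, 103 ± 14.0 in HET and 104 ± 5.78 in KO (± SD), 0.718 and 0.726 times the WT mean. The log2 differences were -0.47 and -0.45 (standard error 0.17 for each), and over the 9 fits that left out 1 library they ran between -0.58 and -0.38 in HET and between -0.54 and -0.36 in KO.

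Of the 19 other atypical receptors, CC receptors and CC chemokines, 6 were tested, with medians of 0.118 and 0.013. In limma 0 passed the unadjusted p of 0.05 in HET or KO (1.11% and 0.822% of all genes tested). The lowest log2 differences were -0.87 in HET (*Ccr2*) and -0.65 in KO (*Ccl17*). The related scavenger *Ackr3* had 404 ± 81.9, 488 ± 198 and 524 ± 199 normalized counts in WT, HET and KO, and *Ackr1*, which binds chemokines on vessels and red cells, had 1424 ± 106, 1466 ± 154 and 1548 ± 263 (SD, n = 3 each). Both had positive log2 differences, at 0.22 and 0.33 for *Ackr3* and 0.04 and 0.11 for *Ackr1*. ACKR2 is known from lymphatic endothelium, and 5 of the 6 lymphatic markers were in the table, with sums of 674 to 896 in WT, 721 to 849.8 in HET and 589 to 858 in KO. These sums overlapped between genotypes, and their part in the *Ackr2* values was not tested.

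The genes were then read against the whole table. In 14239 genes with at least 10 normalized counts in at least 3 libraries, limma called 0 genes at an adjusted p of 0.05 (Benjamini-Hochberg) in HET against WT, KO against WT or KO against HET. With DESeq2 and a further correction of its p-values, the paper did call genes in HET and in KO at 0.05. *Shank3* in KO was among them, so that the 0 holds for the limma fit only. At an unadjusted p of 0.05 it called 158 genes in HET (1.11%), 117 in KO (0.822%) and 186 for KO against HET (1.31%). The HET and KO contrasts share the 3 WT libraries, and 20 genes (0.14%) passed the unadjusted threshold in both with the same sign, the 8 described here among them. The HET and KO libraries lay outside the WT range on the same side for 101 genes (0.709%), 48 above (0.337%) and 53 below (0.372%), and for 4 of the 8 genes, 3 above and 1 below. The HET libraries alone were outside it for 6 of the 8 genes (4.45% of all genes tested), and the KO libraries alone for 5 (4.54%). Without HET replicate 3 and KO replicate 3 the same 4 genes were outside, and 481 of 14170 genes tested. Leaving out mutant libraries cannot bring a gene back into the WT range, so that these 4 had to stay outside. These counts describe the values the genes were chosen on. A fit that took the replicate number as a block gave 365 genes in HET, 310 in KO and 318 for KO against HET at the unadjusted threshold, and 0 at the adjusted one in each comparison.

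**Figure D2:**
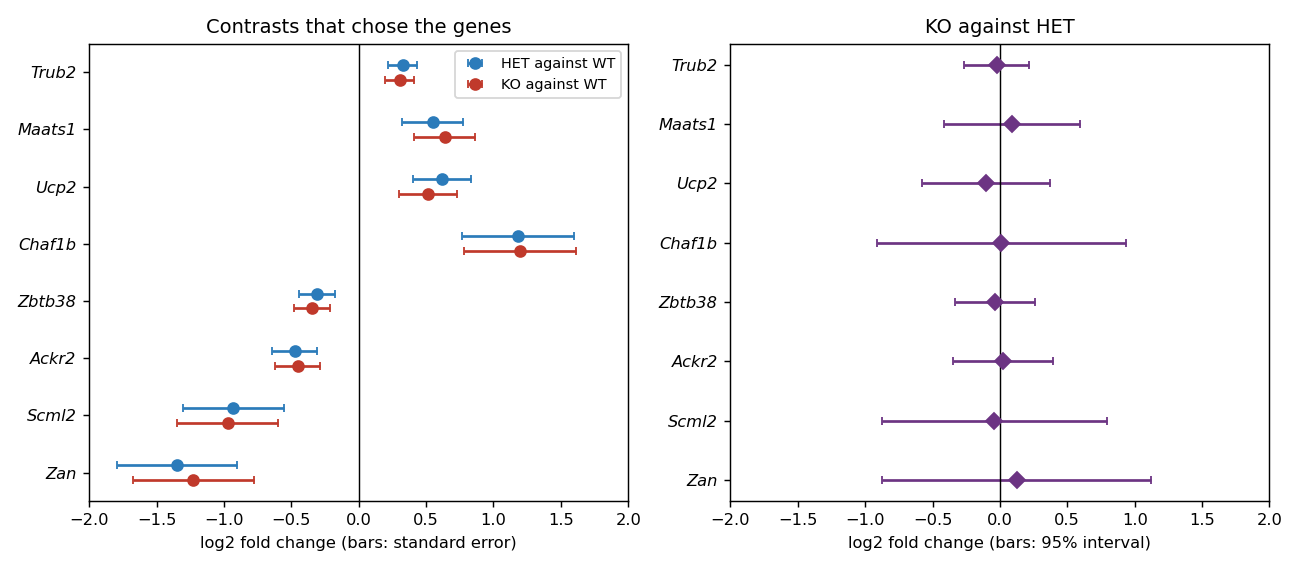
Log2 fold changes (x axis) of the 8 genes, at left HET and KO against WT with standard errors, at right KO against HET with 95% intervals. In the right panel the estimates lie between -0.11 and 0.12.

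KO against HET uses the same HET and KO values that chose the genes, and a choice for equal signs in both genotypes favours small differences here, so that the differences are given as a description without a test. The log2 difference was smallest for *Chaf1b*, at 0.01 with a 95% interval from -0.91 to 0.93, and largest for *Zan*, at 0.12 from -0.87 to 1.12. The interval was narrowest for *Trub2*, -0.02 from -0.27 to 0.22, followed by *Zbtb38*, -0.04 from -0.33 to 0.26, and *Ackr2*, 0.02 from -0.35 to 0.39. For *Ucp2* it was -0.11 from -0.58 to 0.37, for *Maats1* 0.09 from -0.42 to 0.59 and for *Scml2* -0.04 from -0.88 to 0.79. The KO libraries overlapped the HET libraries for all 8 genes (4.45% of all genes tested had KO all above or all below HET). Equal levels in HET and KO are not shown for any of the 8 genes. KO was further from WT than HET for 4 of the 8 genes.

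**Figure D3:**
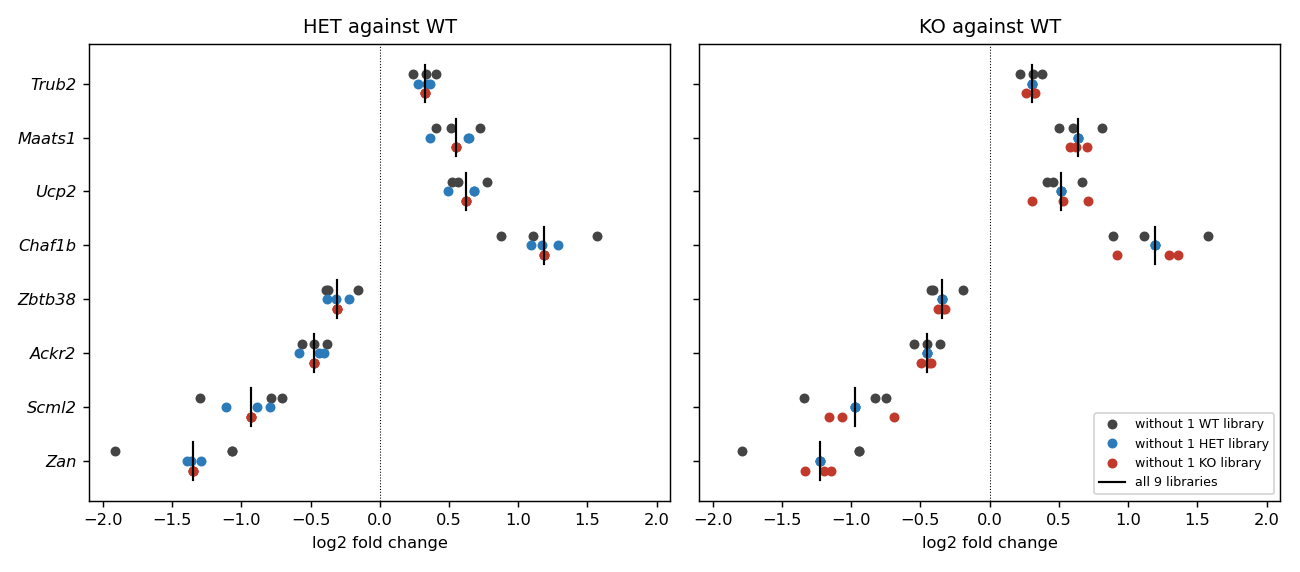
Log2 fold change (x axis) of each gene in HET (left) and KO (right) against WT, with all 9 libraries (black line) and with a single library left out (points, coloured by its genotype). The widest spread comes from leaving out WT libraries for *Zan*, *Scml2* and *Chaf1b*.

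Levels between genes were compared per kilobase of the longest coding transcript. In WT the order was *Zbtb38* (263 normalized counts per kb), *Trub2* (207), *Ucp2* (116), *Ackr2* (47.5), *Maats1* (20.0), *Scml2* (11.7), *Chaf1b* (4.47) and *Zan* (1.96). *Zbtb38* stood at percentile 53.0 of the genes tested in WT and *Zan* at percentile 0.344, so that the list ran from the middle to the bottom of the striatal table. The libraries of neighbours in this order did not overlap, except for *Scml2* with *Chaf1b* and *Chaf1b* with *Zan*. In HET and KO the order changed at 2 places. Each joins a gene chosen as higher in the mutants with a gene chosen as lower, so that the change restates the choice. *Trub2* (259 per kb in HET and 255 in KO) stood above *Zbtb38* (211 and 205), and *Chaf1b* (9.98 and 10.4) above *Scml2* (5.78 and 5.72), and the libraries of these pairs did not overlap within either genotype. In both mutant genotypes *Zbtb38* overlapped *Ucp2*, and *Ackr2* overlapped *Maats1*.

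**Figure D4:**
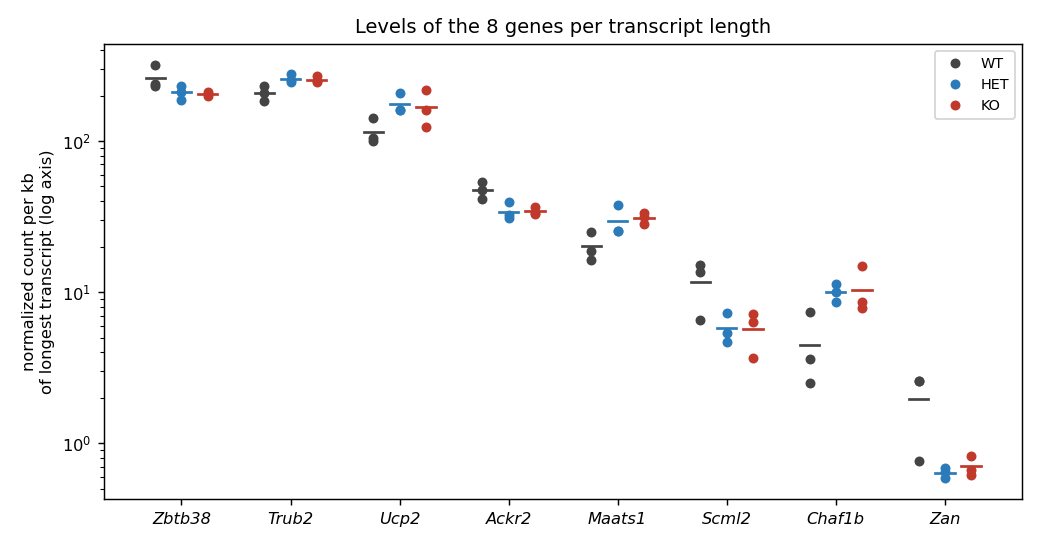
Normalized counts per kb of the longest coding transcript (log axis) for the 8 genes, ordered by their WT mean, with a point per library and a bar at the mean of 3 mice. *Trub2* passes *Zbtb38* and *Chaf1b* passes *Scml2* in both mutant genotypes, which restates the shifts that chose these genes.

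Within a genotype the 8 genes did not vary as 1 group. Each library's deviation from the mean of its genotype was correlated over the 9 libraries for the 28 pairs of genes, as a description of values that share libraries and normalization. The median Pearson r was -0.16, with 4 pairs above 0.5 and 6 below -0.5. The highest was that of *Trub2* and *Zbtb38* (0.76), which shift in opposite directions between genotypes, and the lowest that of *Zbtb38* and *Chaf1b* (-0.73). In HET replicate 3 and in KO replicate 3, 4 of the 8 genes lay above the mean of their genotype. The largest deviations were those of *Zan* in WT replicate 2 (-1.12), *Chaf1b* in WT replicate 3 (0.77) and *Scml2* in WT replicate 1 (-0.74), all in WT libraries.

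**Figure D5:**
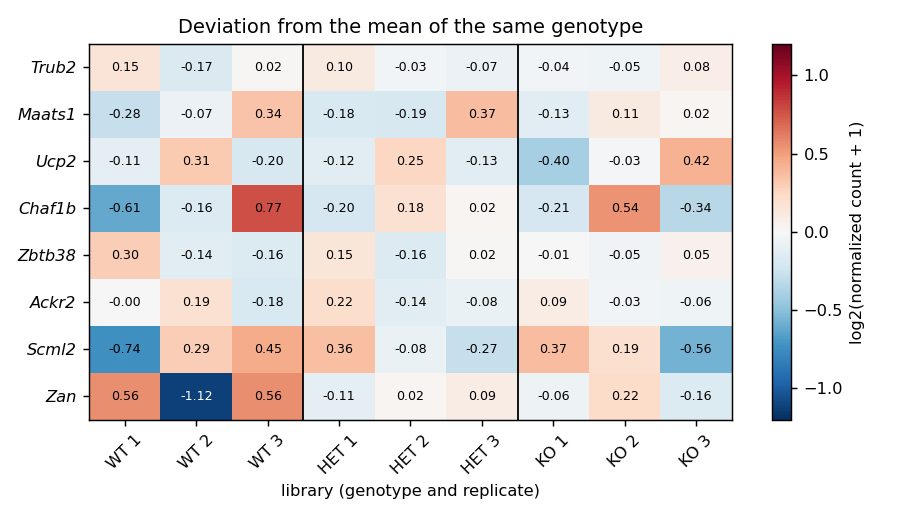
Deviation of each library (columns) from the mean of its genotype for the 8 genes (rows), in log2(normalized count + 1), red above and blue below the mean. The darkest cells are WT libraries of *Zan*, *Chaf1b* and *Scml2*, and no library is red or blue for all 8 genes.

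For each gene, the 2 genes with the highest Pearson r over the 9 libraries were looked up among all genes tested. The 16 values ran from 0.87 to 0.97. They are the highest of 14239 genes over few libraries, where such values can arise between unrelated genes. No background was computed, so that they do not show shared regulation. The highest was that of *Ucp2* with *Lipt2*, a lipoyltransferase gene that is also on chromosome 7 and lies 332 kb away (100159277 to 100161365, plus strand). *Lipt2* had 90.7 normalized counts in WT, 111 in HET and 114 in KO on average. *Maats1* was most like *Sdcbp2* (r = 0.96), with means of 18.4, 31.9 and 31.8, and next *Frmd5* (0.93). *Zan* was most like *Gfm2* (0.93), *Chaf1b* like *Lrig3* (0.93) and *Endod1* (0.92), and *Zbtb38* like *Dcun1d3* (0.91) and *Tbp* (0.90).

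*Ucp2* was next most like *Kif16b* (0.91) and *Zan* like *Pcdhga2* (0.89), whose reads can be split with other members of its protocadherin cluster. *Scml2* was most like *E2f2* (0.89) and *Arhgap9* (0.88), *Ackr2* like *Tnfrsf1b* (0.89) and *Arrdc4* (0.88), and *Trub2* like *Tctex1d4* (0.88) and *Klhl10* (0.87). Both *Tctex1d4* and *Klhl10* had fewer than 20 normalized counts on average in each genotype and fewer than 10 in every WT library. They passed the filter on low values only through the mutant libraries, which in part fixes their likeness to *Trub2*. The r includes the difference between genotypes that chose the 8 genes.

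The nearest tested genes on either side of the 8 genes, 16 in all, were read as neighbours. None passed an unadjusted p of 0.05 in limma in HET (0 of 16, against 1.11% of all genes) or in KO (0 of 16, against 0.822%). Their log2 differences ran from -0.30 to 0.71 in HET and from -0.22 to 0.90 in KO, the highest in both being *Dnajb13*. Over the lists of related genes together, 118 of 148 genes were tested. Of these, 0 passed in HET and 2 in KO (1.69%), against 1.11% and 0.822% of all genes tested.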

How the data were processed

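Striatal RNA of 9 mice (3 WT, 3 HET, 3 KO) was sequenced after stranded mRNA library preparation, with 1 mouse per library. The deposited signal holds normalized counts, which the authors made with Salmon 0.9.1 on GRCm38 with GC bias correction, tximport in R 3.6.0 and division by DESeq2 1.19.11 size factors. Low values were not whole multiples of a read, so the depth is unknown and no counting interval is given. Genotypes and replicate numbers came from the labels, and 0 columns were left unmapped.

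Genes with at least 10 normalized counts in at least 3 libraries were fitted on log2(normalized count + 1) with limma 3.58.1 (trend, R 4.3.3) over the 9 libraries, adjusted p values by Benjamini-Hochberg and the threshold set at 0.05. The fit was tested on simulated data. The study's count model was not used, since it needs reads. For KO against HET the 8 genes are given with 95% intervals from limma (quantiles from scipy 1.17.1), and the planned p-values for them are not reported because the same values chose the genes. Figures used matplotlib 3.10.9. Symbols were found for 15457 genes, coordinates and lengths came from GENCODE on GRCm38 and upstream sequences from RefSeq on GRCm38.p6.

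The 8 genes, the lists of related genes and markers and the alternatives were chosen with earlier results of these data known. Planned for naming were the 8, *Shank3*, the 2 most correlated genes of each, direct partners, and genes of the related lists at an unadjusted p under 0.05 against WT. Outside that plan, *Dnajb13*, *Adam3*, *Acr*, *Zpbp*, *Ccr2*, *Ccl17*, *Ccnb1* and *Mbd2* were named after their values were seen. Lists of pseudouridine synthases, methyl-CpG binders, uncoupling proteins, Polycomb, axoneme, sperm, chemokine and histone chaperone genes were used, with markers of medium spiny neurons, ependyma, choroid plexus, microglia, vessels, lymphatic endothelium, dividing cells, astrocytes, oligodendrocytes and cortical neurons. Same-numbered HET and KO libraries deviated from their genotype means together (r of 0.52, 0.28 and 0.51). Those of WT and KO gave 0.24, -0.22 and 0.02 and those of WT and HET 0.32, -0.01 and 0.005. Libraries with unlike numbers were not correlated, and HET replicate 3 and KO replicate 3 stood apart together. These r therefore cannot show whether the numbers are paired. What the numbers stand for is not given in the sources used here. Alternatives were other filters and pseudocounts, quantile normalization, no trend, fits of the compared genotypes alone, a replicate block and leaving out libraries.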

Additional observations from a re-analysis of the deposited data

How the results depend on the processing

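Of the 282 log2 differences from WT recomputed under the alternatives for the 8 genes, 122 were identical to the value given because the alternative does not enter the estimate, and 0 of the other 160 changed sign, which describes values that the genes were chosen on. The number of genes at an adjusted p under 0.05 stayed at 0 in all 3 comparisons under each alternative. Taking the replicate number as a block gave 365 genes in HET, 310 in KO and 318 for KO against HET at an unadjusted p under 0.05. The KO count was 76 with a minimum of 50 normalized counts and 176 with no trend. Without HET replicate 3 and KO replicate 3 the counts were 271 in HET and 217 in KO, 481 genes had both mutant genotypes outside the WT range, and KO against HET was -0.0997 for *Trub2*, -0.38 for *Ucp2*, 0.10 for *Scml2* and 0.19 for *Chaf1b*.

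Leaving out 1 library at a time, the unadjusted counts ran from 116 to 393 in HET, from 70.0 to 289 in KO and from 141 to 298 for KO against HET, and the number of genes with both mutant genotypes outside the WT range from 145 to 814, the highest without WT replicate 3. Fewer libraries make such a separation easier. Between KO and HET the sign changed in 13 of 72 combinations of gene and library left out, 24 of which leave out a WT library and cannot move it, with ranges of -0.065 to 0.028 for *Trub2*, -0.12 to 0.037 for *Zbtb38*, -0.32 to 0.092 for *Ucp2*, -0.23 to 0.24 for *Scml2*, -0.0081 to 0.27 for *Maats1*, -0.048 to 0.13 for *Ackr2* and -0.26 to 0.18 for *Chaf1b*. The cause was not tested. *Scml2*, *Zan* and *Chaf1b* were not tested at a minimum of 50. With fewer than 60 normalized counts in each WT mean, these 3 genes have the largest standard errors of the 8.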

Other observations

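Markers of other cell types were summed in the same libraries. The summed level of 8 oligodendrocyte markers was 164926 to 272779 in WT, 233705 to 262408 in HET and 142693 to 254308 in KO, and KO replicate 3 had the lowest sum. The 9 choroid plexus markers in the table summed to 6075 to 8486 in WT, 7472 to 8645 in HET and 7586 to 8072 in KO. The 8 astrocyte markers summed to 111397 to 130442 in WT, 114747 to 124427 in HET and 114533 to 124766 in KO, the 9 vessel markers to 7864 to 8448, 7565 to 9744 and 8062 to 8631, and the 7 cortical neuron markers to 39084 to 50449.9, 34081 to 47658 and 38144 to 54146. The sums overlapped between genotypes. In limma, 0 genes of these 5 lists passed an unadjusted p of 0.05 in HET or in KO against WT (1.11% and 0.822% of all genes tested). All 8 oligodendrocyte markers had a higher mean in HET than in WT, with log2 differences of 0.26 to 0.46 (median 0.35), and a lower one in KO than in HET, at -0.39 to -0.24 (median -0.31), while KO against WT ran from -0.02 to 0.15. Their part in the values of the 8 genes was not tested.

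*Mbd2*, from the list of methyl-CpG-binding proteins, was the gene of that list that passed an unadjusted p of 0.05 between KO and HET in limma, with 1322 ± 169 normalized counts in HET and 1113 ± 43.1 in KO (SD, n = 3 each), where 1.31% of all genes tested passed. Its log2 difference was -0.24, and its adjusted p was 0.9999. *Dnah5* also passed between KO and HET, at 0.52, with the same adjusted p, so that 2 of the 118 tested genes in the lists of related genes passed (1.69%).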
